A study of Mus musculus with 18 samples.

Results

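Fibrinogen and its partners in blood clotting are among the abundant secreted products of the liver, and their messenger RNAs were followed through an assay for double-stranded RNA. The set held 10 listed genes (Fga, Fgb, Fgg, F2, F5, Plg, Kng1, Serpinc1, Fn1 and Vtn) of the 55365 genes of GENCODE M21 on GRCm38, of which 7243 had a peak over an exon on their own strand in at least 1 of the 18 libraries. The genes were grouped by their part in clotting, and each was described by the peaks lying on its own strand in every library.

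Total RNA from whole liver of mice 8 to 9 days old was compared between Mavs-/- animals and editing-deficient Adar-/-; Mavs-/- animals. Both genotypes lacked Mavs, the adaptor through which MDA5 signals, and the Mavs-/- libraries are the controls although their titles call them wild-type. From each genotype, 3 biological replicates of 3 fractions were sequenced: undigested RNA (input), RNA digested with an RNase A/T1 mix (RNase-only), and RNA incubated with recombinant mouse MDA5 lacking its CARD domains before digestion (MDA5-protected). Both knockouts are of the whole animal, and the RNA was of all liver cells in bulk, so that fewer cells of a type and less RNA per cell cannot be told apart.

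Fibrinogen is a hexamer of paired Aα, Bβ and γ chains, which thrombin cleaves to fibrin. Prothrombin is activated to thrombin by a complex that contains factor V as its cofactor, antithrombin inhibits thrombin, and plasmin dissolves the clot. Hepatocytes make most of these proteins, whereas ADAR1 converts adenosines of paired RNA strands to inosines and MDA5 is a cytoplasmic sensor of long double-stranded RNA.

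The libraries held 4326 to 6625 input peaks in Mavs-/- and 6991 to 8948 in editing-deficient liver, 3150 to 5572 and 5605 to 6094 RNase-only peaks, and 1180 to 1829 and 1636 to 2868 MDA5-protected peaks. The lists hold no read counts, and the depth under each peak is therefore unknown. All 8 hepatocyte markers had an exonic peak in all 6 input libraries, with a mean exon coverage of 78.1 to 79.6% in Mavs-/- and 81.5 to 83.2% in editing-deficient libraries. Markers of the other cell types in liver were less complete: 3 of 5 Kupffer cell markers had a peak in all 6 libraries, as did 4 of 6 erythroid markers and 0 of 6 endothelial, 0 of 6 stellate and 0 of 4 cholangiocyte markers, and 0 of 5 megakaryocyte or platelet markers had a peak in any. Adar had an own-strand input peak in editing-deficient replicates 2 and 3 and in no Mavs-/- library, and Mavs had none in any library. Editing-deficient RNase-only replicate 2 also held 2 Adar peaks. Where these lie relative to the disrupted part of the gene was not examined, so they do not check the labels.

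Before digestion the transcripts of all 10 genes were covered with peaks along most of their coding sequence. Coverage was measured as the percentage of a gene's exonic bases that lay under own-strand peaks, taking exons over all its basic protein-coding transcripts. The mean over the 6 input libraries ran from 38.6% for Serpinc1 to 95.1% for Plg, against a median of 52.2% over the 1300 genes that had an exonic peak in all 6. Among those 1300 genes, 34.7% had a lower mean than Serpinc1 and 92.3% had a lower mean than Plg. Of the 783 input peaks in the set, 474 (60.5%) started within 5 nt of the first base of an exon after the first.

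**Figure D1:**
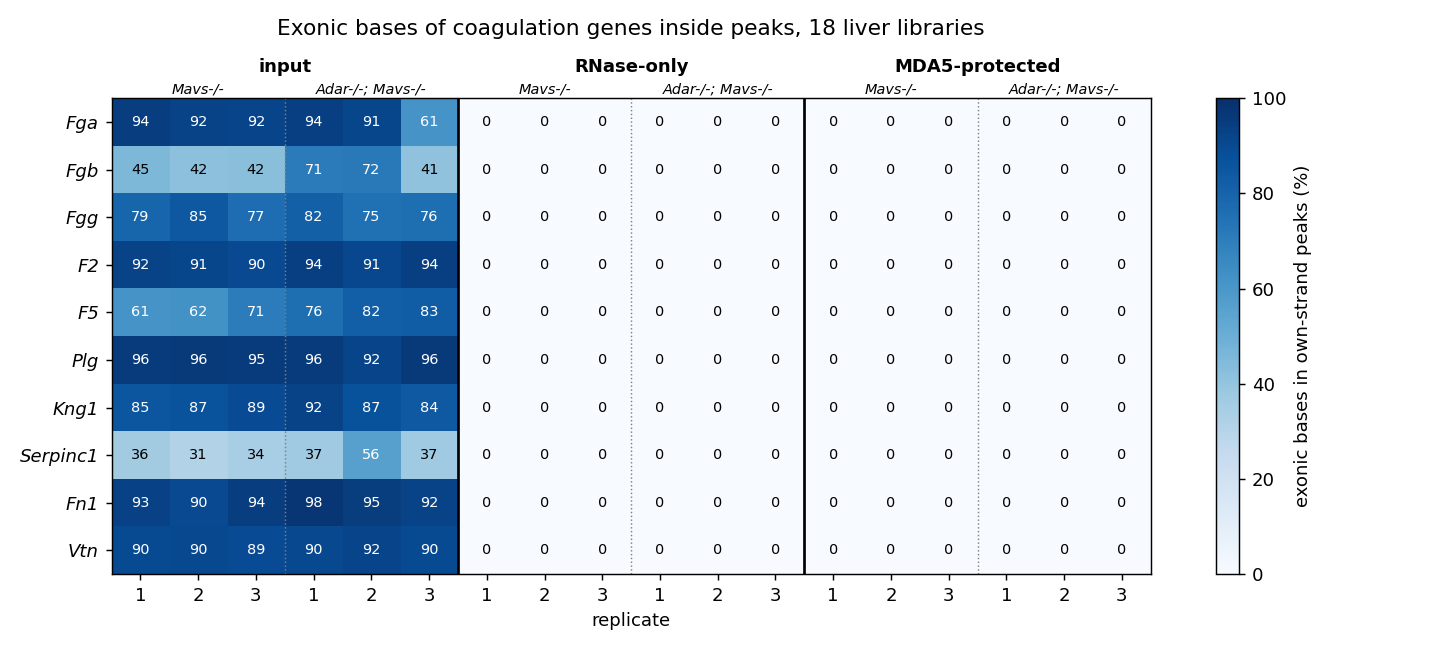
Percentage of exonic bases under own-strand peaks for each of the 10 genes (rows) in each of the 18 libraries (columns, 3 replicates of each genotype in each fraction). Input values lie between 31.2% and 97.5%, and every value in the 12 digested libraries is 0.

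The 3 fibrinogen chains lie together on chromosome 3 and differed in how far their last exons were covered. Fga, the Aα chain (chr3:83026076-83033627, plus strand), had 94.2, 92.4 and 92.0% of its exonic bases under input peaks in Mavs-/- replicates 1 to 3, and 93.9, 91.1 and 61.3% in the editing-deficient replicates. The last of these libraries was low because it listed no peak over exon 1 or exon 6, while exons 2 to 5 were covered in full in all 6. Fga also carried one of the strongest peaks of the input, which ranked 17 to 32 by area in its library.

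Fga exon 6, of 927 nt, belongs to Fga-202, which codes for the long form of the chain, and the shorter and more usual Fga-201 ends in a longer version of exon 5. Exon 6 was covered to 97.8, 85.7 and 85.1% in Mavs-/- and to 90.3, 83.8 and 0% in editing-deficient liver. The stretch of 284 nt at the 3′ end that belongs to Fga-201 alone was covered to 83.8 to 100% in all 6 libraries. Thus peaks lay over the ends of both isoforms in 5 libraries and over that of the short isoform in the other one.

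Fgb, the Bβ chain (chr3:83040141-83049863, minus strand), had 45.4, 41.7 and 42.5% of its exonic bases covered in Mavs-/- and 71.1, 71.6 and 40.9% in editing-deficient liver. Its coding sequence of 1443 nt was covered to 100% in all 6. The spread came from the 3′ UTR, which was covered to 12.0, 5.65 and 7.02% in Mavs-/- and to 54.3, 55.7 and 4.02% in editing-deficient replicates, so that the genotypes overlapped.

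Fgg, the γ chain (chr3:83007724-83015049, plus strand), had 79.4, 84.8 and 76.5% in Mavs-/- and 81.5, 75.1 and 76.0% in editing-deficient liver. Exon 2, of 45 nt, had no peak in any input library, and the other 9 of its 10 exons were covered in all 6. A stretch of 398 nt that only Fgg-202 holds, by reading on past exon 9, was covered to 28.6, 49.5 and 12.1% in Mavs-/- and to 42.5, 0.251 and 0.251% in editing-deficient liver.

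The last exons showed where input coverage stopped, and the hexamer AATAAA, the commonest polyadenylation motif, was searched for on the transcript strand. It was present in the last 40 nt of 57% of the 21778 principal transcripts of protein-coding genes, and in 2.05% of the other windows of 40 nt in their last exons. The sites of Fgb and Fga, with that of Fn1 as a single-site example, are shown from GENCODE M21 as landmarks for the ends of the peaks, with the hexamer in capitals and positions counted from the first base of the last exon.
Fgb at 644: aaaaaggatggtAATAAAtggttggttggt
Fgb at 2081: gtgaaaatagaaAATAAAgagaccactgta
Fgb at 2469: aaacattgaatgAATAAActcaaagaattg
Fga-201 at 1395: cagtcatttctcAATAAAtacattttaaat
Fga-201 at 1410: aaatacattttaAATAAAtgaacaaattct
Fga-202 at 887: ctgctttgaaaaAATAAAgttttacatttt
Fn1 at 742: gacaagtgttttAATAAAaagatttacatt

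Fgb exon 8 runs for 2494 nt and its coding sequence ends at nt 229. The peak that entered it ended at nt 501, 357 and 388 in Mavs-/- and at nt 502, 589 and 320 in editing-deficient libraries, in every case before the hexamer at nt 644. Beyond that hexamer, peaks covered 933 nt in editing-deficient replicate 1, 902 nt in replicate 2, and 0 nt in replicate 3 and in all Mavs-/- libraries. When each input library was cut to its 4326 strongest peaks, the editing-deficient values for the gene were 45.9, 48.0 and 40.9%, the last of them as before.

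Serpinc1 also had a long last exon, of 3577 nt, with coding sequence to nt 174 and hexamers at nt 233, 702 and 1219. Its first block ended at nt 628, 392 and 551 in Mavs-/- and at nt 659, 499 and 567 in editing-deficient libraries. Unlike in Fgb, all these ends lay past the hexamer nearest the coding sequence, at nt 233, and before that at nt 702. Only editing-deficient replicate 2 had further blocks, and it had 1649 nt of the exon covered in all. In other last exons with a single hexamer, the block ended at nt 777 to 907 in the 5 libraries that covered that of Fga-202 (hexamer at nt 887 of 927), at nt 188 to 213 in Fgg (hexamer at nt 195 of 215), at nt 196 to 254 in F2 (235 of 254), at nt 384 to 420 in Plg (398 of 420), at nt 564 to 750 in Fn1 (742 of 760) and at nt 159 to 184 in Vtn (165 of 187). The block of Kng1-203 ended at nt 396 to 576, past its single hexamer at nt 390 of 576 in every library. F5, with hexamers at nt 187 and 879 of 900, had a first block that ended at nt 232 to 557 and was absent in Mavs-/- replicate 1.

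**Figure D2:**
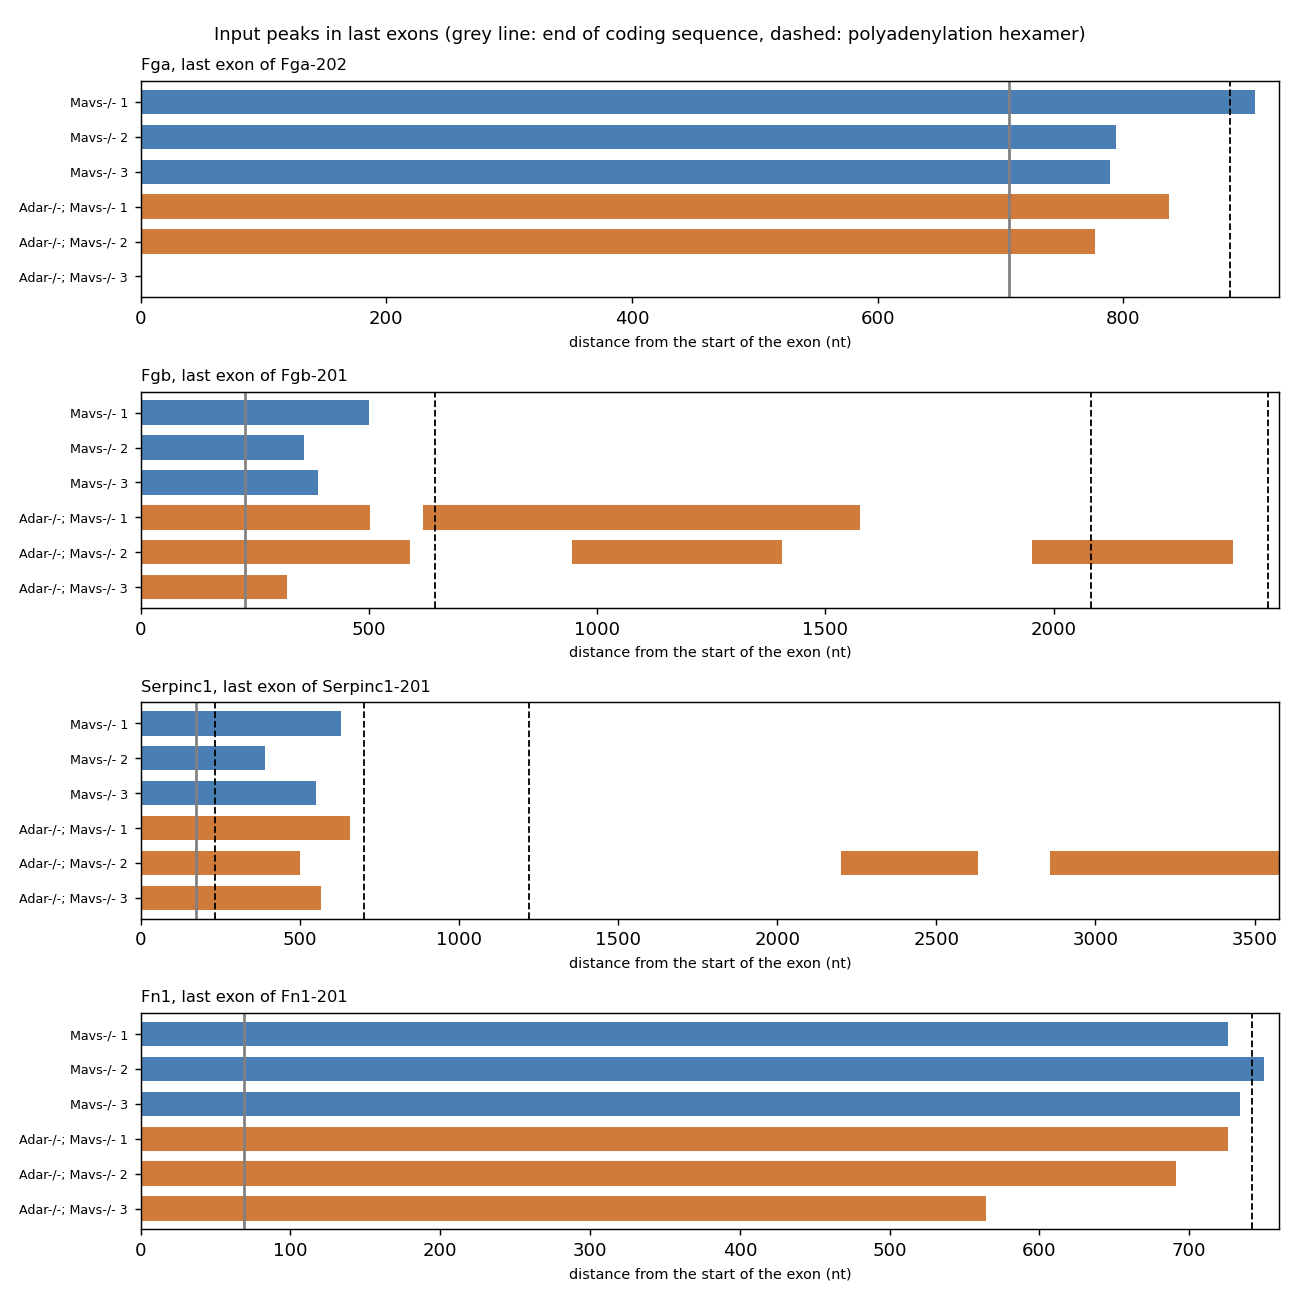
Input peaks along the last exons of Fga-202, Fgb-201, Serpinc1-201 and Fn1-201 in 6 libraries (bars, blue for Mavs-/- and orange for Adar-/-; Mavs-/-), against distance from the first base of the exon in nt. The first Fgb block ends between 320 and 589 nt in all 6 libraries, before the hexamer at 644 nt, and later blocks appear in 2 editing-deficient libraries.

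F2, prothrombin (chr2:91625320-91636414, minus strand), had 92.3, 91.2 and 90.2% of its exonic bases covered in Mavs-/- and 93.9, 90.9 and 93.9% in editing-deficient liver. Exons 3 and 4, of 25 and 51 nt, were those that came and went between libraries: exon 3 was covered in 1 library and exon 4 in 4. Exon 1 was not covered in any.

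F5, coagulation factor V, the cofactor of prothrombin activation (chr1:164151838-164220277, plus strand), had the most uneven coverage of the set. Its exonic coverage was 61.0, 62.2 and 70.6% in Mavs-/- and 75.9, 81.7 and 82.6% in editing-deficient libraries. The lowest editing-deficient library lay above the highest Mavs-/- library. Exon 13, of 2707 nt, codes for the large B domain that is removed when factor V is activated, and it was covered to between 99.5 and 100% in all 6 libraries by a peak that ranked 32 to 56 by area. By contrast, exons 2, 3, 7, 19 and 20 had no peak in any input library, and 11 of 25 exons were covered in Mavs-/- against 15 in editing-deficient liver. An exon counted as covered in a genotype when at least 50% of its bases were under peaks in at least 2 of 3 replicates.

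Plg, plasminogen, the precursor of plasmin (chr17:12378608-12419385, plus strand), had the most complete coverage, at 95.6, 95.8 and 95.5% in Mavs-/- and 95.7, 91.9 and 96.0% in editing-deficient liver. Exon 1 had no peak in any library, and exon 15, of 78 nt, lacked one in editing-deficient replicate 2. Every other exon was covered in all 6.

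Kng1, kininogen, which carries bradykinin and supports contact activation (chr16:23057865-23082078, plus strand), had 85.2, 86.5 and 89.2% in Mavs-/- and 92.2, 87.0 and 84.3% in editing-deficient liver. Kng1-202 skips exon 11 and has a separate end, and peaks lay over both exon 11 and that end. The 543 nt held by Kng1-201 alone are not an end but fill the gap between exons 10 and 11. They were covered to 100% in all 6 libraries. The 601 nt of the separate end of Kng1-202 were covered to 72.9, 72.9 and 100% in Mavs-/- and to 83.9, 83.9 and 76.5% in editing-deficient liver. Of the 1753 windows of 75 nt, the read length, in its principal transcript, 203 (11.6%) were found without a mismatch in transcripts of the neighbouring paralog Kng2. Peaks over those stretches are uncertain as to their gene, and in the other 9 genes no such window was shared with another gene on the same strand.

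Serpinc1, antithrombin (chr1:160978585-161005863, plus strand), had 36.3, 31.2 and 34.4% in Mavs-/- and 36.9, 56.2 and 36.8% in editing-deficient liver. Here too the genotypes did not overlap, but the nearest libraries were at 36.3 and 36.8% and a single library was far above the rest. The low values belonged to the 3′ UTR, as the coding sequence was covered to 97.1% in 5 libraries and to 100% in the sixth. Serpinc1 overlaps Zbtb37, a gene on the opposite strand, so that 2868 of its 4896 windows of 75 nt (58.6%) were complementary to transcripts of that gene. No peak lay on the opposite strand of any of the 10 genes in the 18 libraries.

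Fn1, fibronectin, which is secreted into plasma by hepatocytes and deposited in matrix by other cells (chr1:71585520-71653200, minus strand), had 93.2, 90.2 and 94.4% in Mavs-/- and 97.5, 94.9 and 92.4% in editing-deficient liver. Of its 46 exons, 41 were covered in full in all 6 libraries. Those that were not included both of its well known cassette exons, EDB and EDA, which hepatocytes leave out of plasma fibronectin and matrix-producing cells can retain.

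EDB is exon 25, of 273 nt (chr1:71613763-71614035), and EDA is exon 33, of 270 nt (chr1:71603660-71603929). Both lengths are multiples of 3. The junctions that distinguish inclusion from skipping are shown, 15 bases from each side and with the bases of the cassette exon in capitals, as reads across them would tell the forms apart.
EDB, exons 24 and 25: ataccgttgtcccagAGGTGCCCCAGCTCA
EDB skipped, exons 24 and 26: ataccgttgtcccagctgtccctcctccca
EDA, exons 32 and 33: aaactgcagtgaccaACATTGATCGCCCTA
EDA skipped, exons 32 and 34: aaactgcagtgaccaccattcctgcgccca

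EDB was covered to 100, 0 and 100% in Mavs-/- and to 100, 31.5 and 98.5% in editing-deficient libraries. EDA was covered to 0, 0 and 0% in Mavs-/- and to 100, 100 and 0% in editing-deficient libraries. Exon 28, a constitutive exon of the same 270 nt, and the exons on both sides of each cassette were covered to 100% in all 6. Exon 27, of 90 nt, is skipped by no basic transcript, yet it was at 0, 0 and 100% in Mavs-/-. It was at 100% in every editing-deficient library, and at 0% in all 6 with the 4326 strongest peaks. A gap in peaks does not by itself mark a skipped exon. The peaks over EDA ranked in the top 58.8 and 48.6% of their libraries by area, and the genotypes overlapped, since the third editing-deficient library had none. When each library was cut to its 4326 strongest peaks, EDA coverage stayed as it was, while EDB was at 0, 0 and 98.5% in editing-deficient libraries and as before in Mavs-/-.

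The deposited peaks do not give reads across junctions, so the share of transcripts that include a cassette was not measured. Exon coverage of the 6 stellate cell or fibroblast markers averaged 8.30 to 20.9% in Mavs-/- and 4.35 to 8.14% in editing-deficient libraries, with Lrat and Des at 0 in all 6. That of the 6 sinusoidal endothelial markers averaged 0 to 4.63% and 10.0 to 13.6%, with Pecam1 at 0 in all. Their part in the Fn1 values was not tested.

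Vtn, vitronectin, an adhesive plasma protein that also stabilises plasminogen activator inhibitor (chr11:78499091-78502324, plus strand), had 89.6, 90.4 and 89.1% in Mavs-/- and 90.5, 92.1 and 89.5% in editing-deficient liver. All 7 exons after the first were covered in both genotypes, and exon 1 was covered to 44.9 to 57.1%.

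**Figure D3:**
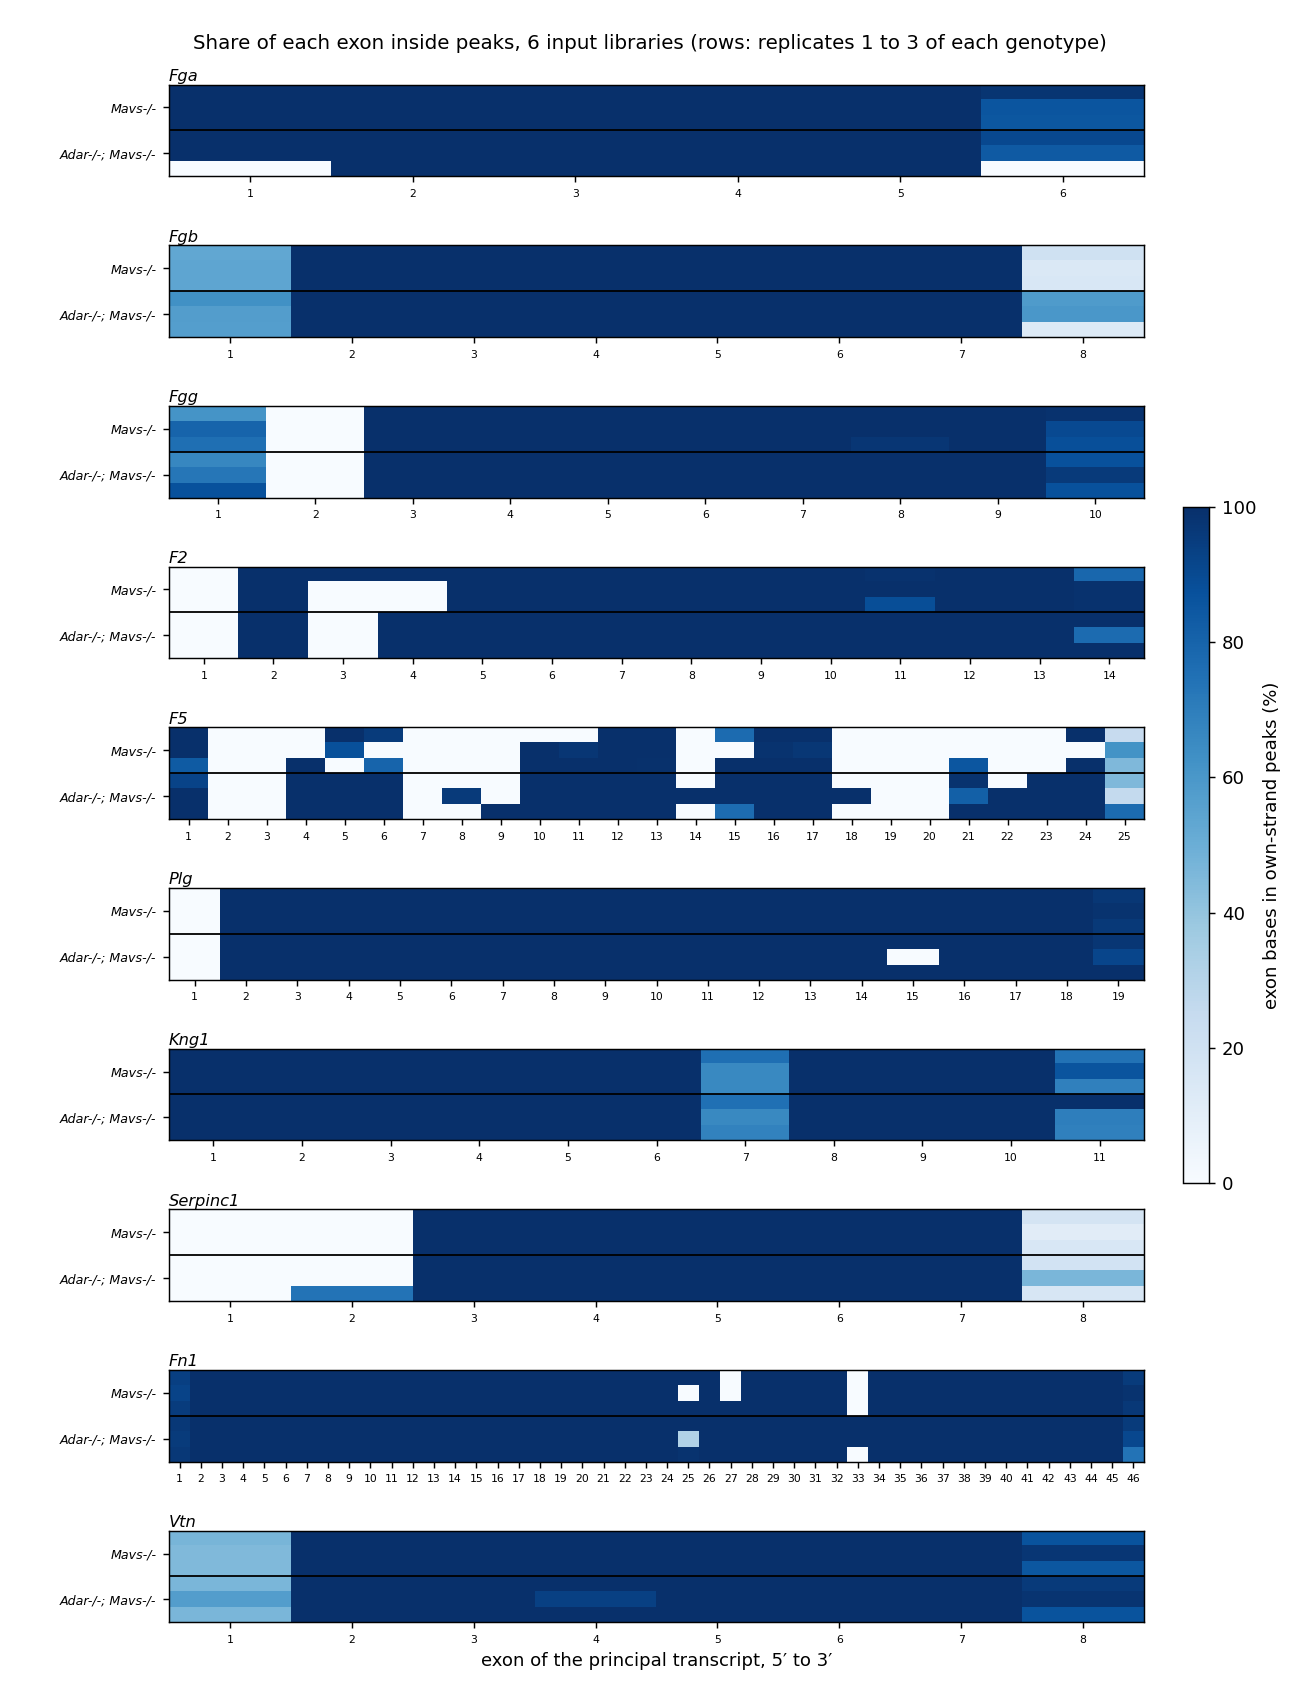
Share of each exon under own-strand input peaks for the principal transcripts of the 10 genes (columns, exons from 5′ to 3′) in 6 libraries (rows, Mavs-/- above the line and Adar-/-; Mavs-/- beneath it). F5 has the most gaps, and Fn1 is filled except at exons 25, 27 and 33.

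Counted over the principal transcripts, 129 of 155 exons were covered in both genotypes and 102 were covered in full in all 6 libraries. Another 8 were covered in editing-deficient liver only by this count (Fgb exon 8, F2 exon 4, F5 exons 4, 21, 22 and 23, and Fn1 exons 27 and 33), 0 in Mavs-/- only, and 18 in neither. The difference between the genotypes was not tested exon by exon, and the editing-deficient input libraries listed more peaks in all. With equal numbers of peaks per library its direction turned, as 125 exons were covered in editing-deficient and 129 in Mavs-/- liver, 123 of them in both.

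The shortest exons were covered least often. In the set, 3 of 8 exons under 75 nt (37.5%) were covered in both genotypes, against 13 of 16 from 75 to under 100 nt (81.2%), 43 of 50 from 100 to under 150 nt (86%), 57 of 65 from 150 to under 300 nt (87.7%) and 13 of 16 of 300 nt or more (81.2%). The corresponding shares over 636 protein-coding genes with at least the input coverage of Serpinc1 were 14.8, 29.4, 42.4, 57.9 and 67.4%.

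After RNase digestion no exonic peak was left in any of the 10 genes. Their exonic coverage was 0% in all 6 RNase-only libraries and in all 6 MDA5-protected libraries, for Fga, Fgb, Fgg, F2, F5, Plg, Kng1, Serpinc1, Fn1 and Vtn alike. Peaks in digested libraries had been called with the input of the same genotype as control, so a missing peak says that reads were not enriched over the input and not that the RNA was absent.

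All 10 genes were lower in RNase-only than in input libraries (exact stratified permutation test across all genes, two-sided, 6 against 6 libraries, p = 0.005, the smallest its 400 arrangements allow; adjusted p = 0.0183 for each). The background was 33.1% of the 5195 genes tested called lower and 6.95% called higher. The differences ran from -38.6 points for Serpinc1 to -95.1 points for Plg, with a median of -87.4 points over the 10 genes and of -8.28 points over all genes tested. These differences equal the input coverage with its sign changed, since the digested values were all 0. With every input value above 0, p could take only its smallest value, so it gives no evidence beyond the zeros themselves.

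Loss of every exonic peak was common among well covered genes. Of the 1300 genes with an exonic peak in all 6 input libraries, 70.1% had none in any of the 12 digested libraries, and of the 1041 genes with at least the mean input coverage of Serpinc1, 73.8% had none. In the fibrinogen and coagulation set it was 10 of 10.

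**Figure D4:**
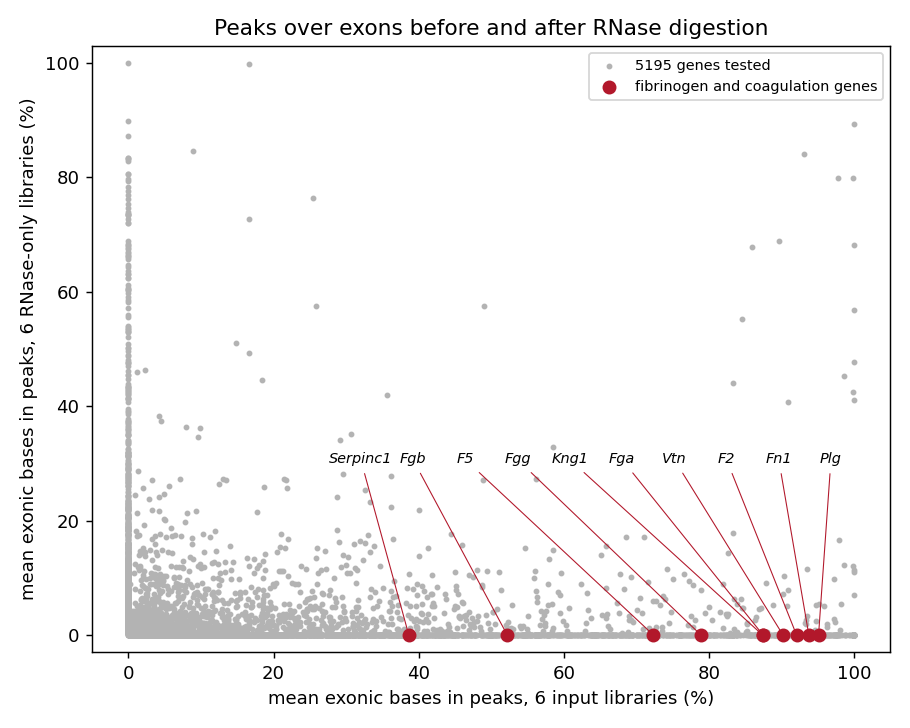
Mean percentage of exonic bases under peaks in the 6 input libraries (horizontal axis) and in the 6 RNase-only libraries (vertical axis) for the 5195 genes tested (grey points), with the 10 fibrinogen and coagulation genes in red. All 10 lie at 0 on the vertical axis, from 38.6% to 95.1% on the horizontal axis.

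No gene of the set could be tested between MDA5-protected and RNase-only libraries, because none had an exonic peak in either. For comparison, 10.9% of the 2014 genes that could be tested were lower and 0.149% were higher with MDA5. The change from input to RNase-only did not pass the test of a difference between genotypes in any of the 10 genes, with adjusted p from 0.464 to 1 (exact permutation test), and 0% of 5195 genes passed it. Without adjustment, 99 genes and 0 of the 10 had p under 0.05. For the 10 genes this was fixed in advance. With every RNase-only value at 0, the change was the input difference between genotypes with its sign reversed. The exact test then came down to 3 against 3 input libraries, where p cannot go below 0.1, so it draws no conclusion on these genes.

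Between the genotypes, 2 of 10 genes had input coverage in ranges that did not overlap, and both were higher in editing-deficient liver. F5 had 64.6% ± 5.20 (SD, n = 3) in Mavs-/- against 80.1% ± 3.61, a difference of 15.5 points, and Serpinc1 had 34.0% ± 2.53 against 43.3% ± 11.2, a difference of 9.34 points (exact permutation test, p = 0.1 for each, the smallest that 3 against 3 allows). Over all genes, 16.6% of 5223 were higher without overlap and 3.01% were lower. The 2 genes were not stable to the settings: with a minimum area of 1000 they were F5 and Fgg, 1 higher and 1 lower, and without editing-deficient replicate 1 they were 4 (Fga, Fgg, F5 and Serpinc1), 2 higher and 2 lower. Taking the 4326 strongest peaks of every input library left 0 of 10, and F5 was then at 58.0, 62.2 and 63.3% against 60.0, 60.8 and 65.8%.

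Platelets also carry factor V, and the 5 megakaryocyte or platelet markers had no exonic peak in any of the 6 input libraries. Averaged over its 6 markers, endothelial coverage was higher in editing-deficient input libraries, which also listed more peaks in all. By marker, only Clec4g was higher without overlap, Pecam1 was at 0% throughout, and Kdr was highest in Mavs-/- replicate 2 (15.8%). Erythroid marker coverage averaged 65.2 to 81.3% in Mavs-/- and 50.3 to 61.4% in editing-deficient libraries. All 6 erythroid markers had an exonic peak in some input library. Alas2, however, was at 0% in every editing-deficient one, and Slc4a1 was at 0% in editing-deficient replicate 3. The part of these cell types in the F5 values was not tested. In the RNase-only and MDA5-protected libraries the genotypes could not differ in exonic coverage of the set, where backgrounds were 2.13% higher and 0.865% lower of 3468 genes, and 3.49% higher and 2.57% lower of 544 genes.

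Peaks in introns were the only own-strand peaks left in digested libraries, and there were 6 in all. They lay in F5, Plg, Kng1 and Fn1, and all were in editing-deficient libraries, which also listed more peaks on average. Fga, Fgb, Fgg, F2, Serpinc1 and Vtn had no own-strand peak, exonic or intronic, in any of the 12.

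In F5, 3 of these peaks fell at 1 place in intron 3, which is 12199 bp long, at least 3888 bp from the nearest exon. The RNase-only peak of replicate 3 spanned chr1:164165789-164166236 (448 bp). The MDA5-protected peaks spanned chr1:164166127-164166336 in replicate 1 (210 bp) and chr1:164166012-164166275 in replicate 3 (264 bp), and replicate 2 had none. They had ranks by area of 1458 among 5605 peaks, 1309 among 1636 and 1309 among 2868.

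When peaks of replicates within 200 bp were joined and RNase-resistant positions subtracted, these made 1 MDA5-protected position of 325 bp in editing-deficient liver (chr1:164166012-164166336, intron 3 of F5, plus strand) and 0 in Mavs-/-. It was the only joined position of the set, and no position was supported by all 3 replicates of a genotype. The subtraction did not remove it, because the RNase-only peak was seen in a single replicate and so was not itself a joined position. A minimum area of 1000, or equal numbers of peaks per library, left 0 positions, as did leaving out editing-deficient MDA5-protected replicate 1 or replicate 3. No annotated gene other than F5 overlapped it.

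The other 3 intronic peaks were single. Plg had one in intron 10 in RNase-only replicate 1 (chr17:12398817-12398965, 149 bp, rank 5242 among 5798), and Kng1 had one in intron 3 in MDA5-protected replicate 3 (chr16:23064143-23064218, 76 bp, rank 2796 among 2868). Fn1 had one in intron 32 in MDA5-protected replicate 2 (chr1:71604388-71604506, minus strand, 119 bp, rank 1922 among 2768). The Fn1 peak lay near the middle of this intron, which is 1040 bp long, with the EDA exon nearest at 458 bp. It was within 200 bp of an input peak of editing-deficient replicate 1.

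The wider pathway was less fully covered in the input, with a median of the genes' mean coverage of 14.6%. Of 36 other genes of coagulation, anticoagulation and fibrinolysis, 18 had an exonic peak in all 6 input libraries, 8 in some and 10 in none. The best covered were Pzp, a broad protease inhibitor (97.1% on average), Serpinf2, the plasmin inhibitor α2-antiplasmin (94.1%), Serpind1, heparin cofactor II (94.1%), F12, which starts contact activation (89.9%), and Proc, protein C (85.6%). After digestion 19 of the 23 genes tested were lower and 0 were higher, against 33.1% lower and 6.95% higher of all 5195 genes tested. Input coverage was higher without overlap in editing-deficient liver for F12, Kng2 and Serpina10 and lower for Klkb1. Over all 5223 genes, 16.6% were higher and 3.01% lower without overlap, and the editing-deficient input libraries listed more peaks in all.

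Of the 36, 3 had an exonic peak in an RNase-only library (F3, F10 and Mcfd2), and 1 of them, F10, had one in MDA5-protected libraries. For comparison, 70.1% of the 1300 genes with an exonic peak in all 6 input libraries had none in any digested library. F3, tissue factor, had no exonic peak in any input library. F10 encodes factor X, which with factor V converts prothrombin, and all its digested peaks lay in the 3′ UTR of exon 9, the last. They spanned chr8:13056204-13056403 and chr8:13056049-13056277 in Mavs-/- MDA5-protected replicates 1 and 3, and chr8:13056088-13056196 and chr8:13056064-13056310 in editing-deficient replicates 2 and 3. This gave 1 joined MDA5-protected position in each genotype, and 1 RNase-only library, editing-deficient replicate 2, also had a peak there.

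Mcfd2, which helps to export factors V and VIII from the endoplasmic reticulum, had 1 joined RNase-resistant position, in the 3′ UTR of exon 4 in editing-deficient liver and in 2 replicates. The remaining joined positions were intronic. F8, factor VIII, had no input peak, exonic or intronic, but 14 RNase-resistant positions in each genotype. It had 10 MDA5-protected positions in Mavs-/- and 11 in editing-deficient liver. Editing-deficient RNase-only replicate 1 listed 4 peaks in F8, against 14 to 19 in the other RNase-only libraries. Whether other genes or repeats lie at the F8 positions was not examined. Kng2 had 4 and 12 RNase-resistant positions and 0 and 2 MDA5-protected positions. Its RNase-only peaks came from Mavs-/- replicates 1 and 2 (5 and 5) and editing-deficient replicates 2 and 3 (13 and 21). Mavs-/- MDA5-protected replicate 1 also listed 3 peaks in Kng2, and the other Mavs-/- replicates listed none. F11, factor XI, had 1 RNase-resistant position in Mavs-/- and 0 in editing-deficient liver.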

How the data were processed

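Mouse liver RNA in 6 groups (2 genotypes by 3 fractions, 3 replicates each) was grouped by the genotype and by the labels on MDA5 and RNase. Reads had been trimmed by the authors (Trim Galore 0.6.6), mapped with NextGenMap 0.5.5 on GRCm38, and turned into peaks for each strand separately by Genrich 0.6.1 (adjusted p of at most 0.01, area of at least 500, gap of at most 20 bp), with the input as control for digested libraries. Each deposited list gives, for each peak, the area under the curve as a score and −log10 p-values. Depth is unknown, and the number of libraries limits the precision.

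Peaks were laid on GENCODE M21 exons with Python 3.11.15 and numpy 2.4.6. Fractions were compared by an exact permutation test stratified by genotype over all genes with an exonic peak in at least 2 libraries, with Benjamini-Hochberg adjustment (threshold 0.05), and genotypes by whether ranges overlapped. The scripts were tested on simulated data. P-values give the share of label arrangements with a difference at least as large as that observed. Replicates were joined within 200 bp, pieces under 10 bp were dropped, and AATAAA was searched on the transcript strand.

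The genes and lists were chosen with earlier results of these data known. Named pathway genes were the 5 with the largest input coverage and all with a joined position; F3, Serpina10 and Klkb1 were added after their values were seen. Alternatives covered the minimum area, equal numbers of peaks, strand, exon set, gene filter, joining rule, replicate block and each library left out.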

Additional observations from a re-analysis of the deposited data

How the results depend on the processing

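The 10 genes called lower in RNase-only libraries stayed at 10 under every alternative except the replicate block, which gave 0: with 6 pairs no p can go below 0.03125, and the smallest adjusted p over all genes was 0.113. Same-numbered input and RNase-only libraries correlated at -0.140 to -0.0020 in their deviations from the group means, all of them negative. Between input and RNase-only libraries with different numbers, every correlation was positive in editing-deficient liver, and both signs occurred in Mavs-/- liver. Same-numbered input libraries of the 2 genotypes correlated at -0.058 to 0.0026. Whether libraries of the same number are linked was not tested, so the result with the replicate block is not set aside. The count of 2 genes whose input ranges did not overlap between genotypes became 0 with equal numbers of peaks per library and 4 with the replicate block (the sign of 3 paired differences, 3 higher and 1 lower), and ranged from 2 to 5 when libraries were left out (4 without editing-deficient replicate 1, 2 of them lower, and 5 without replicate 3). The single joined MDA5-protected position, in F5, was lost (0) with a minimum area of 1000, with equal numbers of peaks, and when all 3 replicates had to support it, and ranged from 0 to 1 when libraries were left out (0 without editing-deficient MDA5-protected replicate 1 or 3). The 129 exons covered in both genotypes became 100 to 133 under other settings, and 123 to 127 without single libraries; with equal numbers of peaks, 125 were covered in editing-deficient and 129 in Mavs-/- liver, against 137 and 129 with all peaks. Counts of 0 (joined exonic RNase-resistant positions, MDA5-protected against RNase-only, differences between genotypes in digested libraries and in the change on digestion) stayed at 0. No alternative could have moved them, so this is no sign of stability. The 10 genes had no exonic peak in any digested library, and the test of the change on digestion could not reach the threshold in them. Without read counts, a low peak and no peak could not be graded, and peak calling against the input limits what could be seen over abundant transcripts. The causes of these changes were not tested beyond the construction of each alternative.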
